A study of Macaca mulatta with 24 samples.

Results

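The change in the response to wood smoke between a single exposure and repeated exposure was measured in airway epithelial cultures of rhesus macaques. The quantity of interest is a difference of differences, the smoke effect after 5 days (smoke minus filtered air, log2) minus the smoke effect after 1 day. It was computed from 16 of the 24 libraries of the study and tested in 13794 of 35432 genes, those that reached 10 in 4 or more of these libraries. A negative value means that the smoke effect moved down between the times, which a gene can reach by losing an early rise or by gaining a later fall.

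Cells came from the trachea and bronchi of 4 adult female animals (S1 to S4, aged 5463, 2930, 2238 and 1128 days) and were grown on porous inserts, with retinoic acid in the medium, until they had differentiated at an air–liquid interface. Each animal's cultures gave 1 library for each of 4 groups: diluted whole wood smoke for 1 day, filtered air for 1 day, smoke for 5 days in a row and air for 5 days in a row. An exposure day was 1 session of 6 hours. Age and animal cannot be told apart. Each animal entered each group with 1 library, so the errors below measure the spread of these 16 libraries around their group and animal levels. RNA was selected by its poly-A tail, and the labels do not say whether a library pooled several inserts.

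Wood smoke carries polycyclic aromatic hydrocarbons, aldehydes and particles. The hydrocarbons bind the aryl hydrocarbon receptor (AHR), a transcription factor that switches on cytochrome P450 genes, and reactive compounds activate the antioxidant factor NRF2. A first contact with stress also induces immediate early genes, whose transcripts rise within minutes to hours and are shut off by feedback. Airway epithelium at an air–liquid interface holds basal progenitor cells, secretory cells and multiciliated cells, and basal cells divide while they replace the others. SR proteins, named for their serine and arginine repeats, bind pre-mRNA, gather in nuclear speckles and steer splicing.

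The cultures carried the markers of airway epithelium. KRT5, the basal cell keratin, lay at 23740 to 57570 normalized counts over the 16 libraries, and FOXJ1, the master factor of multiciliated cells, at 1217 to 10290. Of the club cell markers, SCGB1A1 lay at 6.27 to 42.8, SCGB3A1 at 2.9 to 1245 and BPIFB1 at 418 to 159800. Of 12 leukocyte markers 3 passed the filter (LYZ, CD14 and CD68), while PTPRC had a median of 0 and MS4A1 and CD3D were at 0 in every library. The leukocyte list summed to 2660 to 3607 in smoke and 2552 to 3675 in air at 1 day, and to 2670 to 4064 in smoke and 3399 to 4890 in air at 5 days, most of it LYZ, which airway secretory cells also make. Of 7 endothelial markers 4 passed (KDR, VWF, PECAM1 and TEK), and CDH5 was at 0 in every library. The endothelial list summed to 1488 to 9153 in smoke and 2032 to 9769 in air at 1 day, and to 7065 to 16360 in smoke and 3709 to 20710 in air at 5 days, nearly all of it the VEGF receptor gene KDR. The part of these lists in the results below was not tested. The 12 basal markers measured summed to 63900 to 81030 in smoke and 63260 to 80290 in air at 1 day, and to 38620 to 52760 in smoke and 41340 to 63560 in air at 5 days. These are bulk samples, so fewer cells of a type and less RNA per cell cannot be told apart. Normalized totals were 11.8 to 15.2 M per library and approximate depths 9.46 to 17.4 M reads.

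S1 had an unusual library, that of filtered air at 5 days. Its median correlation with the other libraries was 0.861, against 0.932 to 0.958 for the remaining 15. It was the shallowest, at about 9.46 M reads, and 8.49% of its values lay in the 13 mitochondrially encoded genes, against 2.95 to 3.67% in the other 5-day air libraries. That share was also high in the 1-day air library of S1, at 8.82% against 5.71 to 6.75% in the other 1-day air libraries. Over all genes tested, the standard deviation of the change in the smoke effect was 1.29 in S1, 0.611 in S2, 0.594 in S3 and 0.545 in S4, in log2 units. For that reason calls are given both with all 4 animals and without S1.

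With all 4 animals 5 genes changed their smoke effect between 1 and 5 days, which is 0.0362% of the genes tested (limma with animal as a block, Benjamini-Hochberg adjusted p under 0.05). The effect moved down for KLF6, AKAP17A, EPHA2 and RSRP1 (0.029% of genes) and up for RGS2 (0.00725%), each in 4 of 4 animals. Of all genes 11.1% were negative and 10.6% positive in 4 of 4 animals. Selection by a small p favours such agreement, so it is no separate result. Without S1 52 genes were called (0.377%), 9 up (0.0652%) and 43 down (0.312%), and the 5 genes were among them. At an unadjusted p under 0.05 there were 1047 genes with 4 animals and 1684 without S1. Rescaling by library totals moved the median of all genes by +0.16 log2, to 0.16 against 0.01 as deposited, and left 3 calls with 4 animals (2 up, 1 down), of which 2, KLF6 and RGS2, were among the 5. Without S1 it gave 20 up and 18 down. The balance of directions without S1 therefore depends on the scaling. In a fit with no term for animal, 0 of the 5 calls stood (355 genes at an unadjusted p under 0.05), and in a test on 1 difference per animal the smallest adjusted p was 0.705 (698 genes at an unadjusted p under 0.05). With 1 of the 15 other libraries left out, AKAP17A kept its call in 4 cases, RGS2 in 3, RSRP1 in 2 and EPHA2 in 1, and with 1 animal left out each of these 4 kept it only without S1. In the fit without S1 all 5 kept their calls in each of 12 omissions of a library. With a further animal left out of that fit, KLF6 kept its call in 2 of 3 cases, AKAP17A, EPHA2 and RGS2 in 1 of 3 and RSRP1 in 0 of 3.

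**Figure D1:**
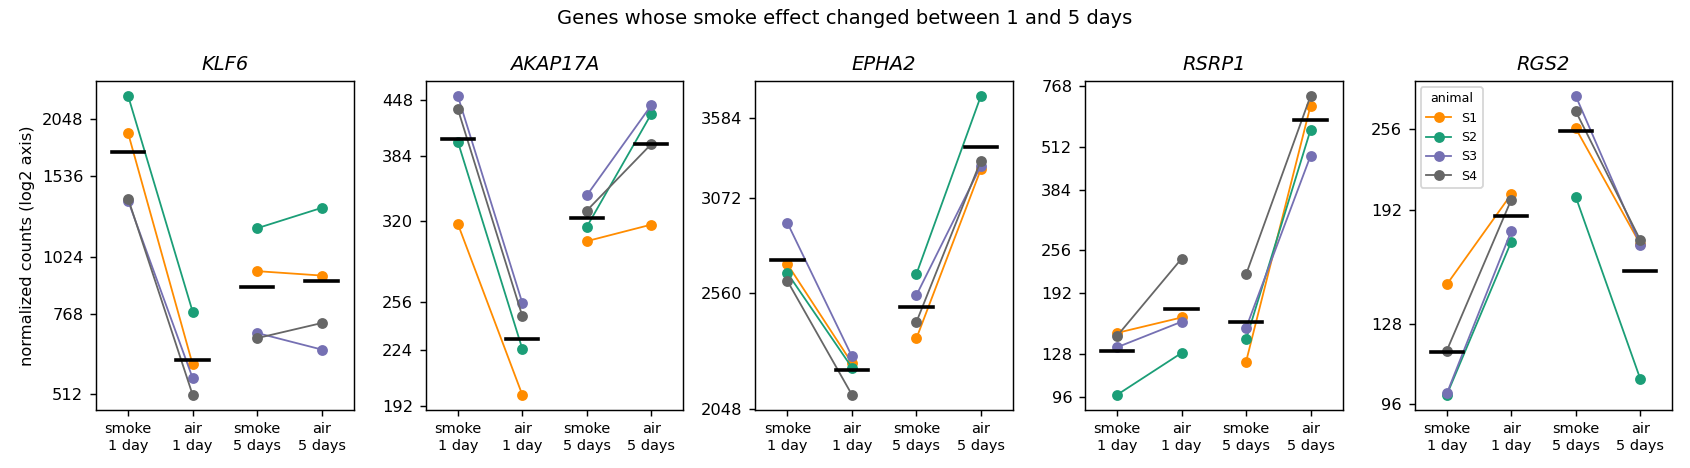
Normalized counts (log2 axis) of the 5 genes called with 4 animals, by library. Points of 1 colour are 1 animal, lines join smoke and air of the same animal at the same time, and black bars are group means (n = 4). AKAP17A, EPHA2 and RGS2 cross over in each animal, with smoke above air at one time and below it at the other, whereas KLF6 shows its difference at 1 day and RSRP1 its larger one at 5 days.

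KLF6 (ENSMMUG00000010696), a zinc finger transcription factor of the Krüppel-like family that is induced early after injury and growth signals, had the smallest p. At 1 day it stood at 1910, 2306, 1358 and 1372 normalized counts in smoke (S1 to S4), against 594, 776, 555 and 510 in air. After 5 days it had 952, 1182, 696 and 678 in smoke, against 931, 1310, 641 and 732 in air. The groups did not overlap at 1 day and overlapped almost fully at 5 days. KLF6 was thus 2.81-fold higher in smoke at 1 day (log2 1.49, limma adjusted p = 1.29e-05), where 0.0435% of genes were called, and at log2 −0.03 at 5 days (adjusted p = 0.890). The change was −1.52 ± 0.13 log2 (SE, n = 4 animals, adjusted p = 0.000608), and −1.48 ± 0.12 without S1 (adjusted p = 7.57e-05). Between 1 and 5 days its fitted level moved by −0.99 log2 in smoke and by +0.53 in air. The call stood in 15 of 15 omissions of another single library but in 2 of 4 omissions of an animal: without S2 or S4 no gene was called.

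KLF6 belongs to a list of immediate early transcription factors, of which 26 were measured. With 4 animals 1 of the 26 was called, KLF6, and without S1 2 were, KLF6 and BHLHE40, both down. Of all genes 0.029% were called down with 4 animals and 0.312% without S1. The median change of the list was −0.49 log2 (−0.42 without S1), with 21 members below 0, or 80.8%, against 49.1% of all genes, whose median was 0.01. In 14 of the 26 the change was negative in 4 of 4 animals (53.8%, against 11.1% of all genes). BHLHE40, a basic helix-loop-helix repressor, had a change of −0.77 ± 0.13 without S1 (adjusted p = 0.0209, kept in 5 of 12 omissions of a library), and of −0.59 ± 0.18 with 4 animals (adjusted p = 0.521). It stood at −0.06 in S1 and at −0.54, −1.06 and −0.70 in S2, S3 and S4.

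The other members did not pass the test, and their values are given as such. MYC, a driver of growth and ribosome production, had 468, 285, 223 and 175 normalized counts in smoke against 259, 151, 134 and 127 in air at 1 day. At 5 days the values were 148, 80.3, 76.0 and 86.5 in smoke against 230, 83.3, 90.3 and 84.0 in air, a change of −0.96 ± 0.21 (adjusted p = 0.308; −0.79 ± 0.22 without S1, adjusted p = 0.153). Smoke was above air in all animals at 1 day and below it in 3 of 4 at 5 days. FOS, a subunit of the AP-1 factor, had another course, with 343, 394, 291 and 238 in smoke against 320, 545, 373 and 309 in air at 1 day. After 5 days there were 490, 506, 338 and 534 in smoke against 797, 986, 697 and 886 in air (change −0.58 ± 0.23, adjusted p = 0.592; −0.51 ± 0.22 without S1, adjusted p = 0.366). At 5 days FOS was lower in smoke (log2 −0.86, adjusted p = 0.0437), where 0.551% of genes were called. EGR1, another early zinc finger factor, was at 0.49 at 1 day and 0.25 at 5 days, a change of −0.24 ± 0.24 (−0.30 ± 0.24 without S1).

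A pair of the 5 genes belonged to a list of SR proteins and nuclear speckle factors, of which 33 were measured. Both were called down, as were 0.029% of all genes with 4 animals. AKAP17A (ENSMMUG00000000885), a splicing-associated protein that anchors protein kinase A, had 318, 399, 453 and 437 normalized counts in smoke against 198, 225, 256 and 246 in air at 1 day. At 5 days it had 303, 315, 344 and 330 in smoke against 317, 431, 441 and 396 in air. Smoke was above air without overlap at 1 day and below air in every animal at 5 days, where the groups overlapped through S1. Its fitted level moved by −0.30 log2 in smoke and by +0.77 in air between the times. Its smoke effect was 0.79 at 1 day (adjusted p = 0.00613) and −0.28 at 5 days (adjusted p = 0.177, and 0.0174 without S1). The change was −1.07 ± 0.13 (adjusted p = 0.0138), and −1.18 ± 0.11 without S1 (adjusted p = 0.000436).

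Another course was seen for RSRP1 (ENSMMUG00000002970), whose product is rich in arginine and serine and of little known function. At 1 day it had 147, 97.2, 134 and 144 normalized counts in smoke against 163, 129, 159 and 242 in air. After 5 days it had 121, 141, 152 and 218 in smoke against 674, 573, 482 and 719 in air. The 4 air libraries at 5 days were the only high ones of the 16. The fitted level moved by +1.84 log2 in air between the times and by +0.26 in smoke. The smoke effect was −0.38 at 1 day (adjusted p = 1.00) and −1.96 at 5 days (adjusted p = 0.000284). The change was −1.58 ± 0.22 (adjusted p = 0.0275), at −2.32 in S1, −1.61 in S2, −1.41 in S3 and −0.98 in S4. Without S1 it was −1.33 ± 0.19 (adjusted p = 0.00990).

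Without S1 4 more members of the SR list were called. Of the 33 members 5 were then called down and 1 up, where 0.312% and 0.0652% of all genes were. The splicing activators SRSF6 (−0.60 ± 0.11, adjusted p = 0.0327) and TRA2A (−0.68 ± 0.10, adjusted p = 0.0125) and the speckle protein gene PNISR (−0.81 ± 0.15, adjusted p = 0.0368) moved down. SRSF2, an SR protein that helps define exons, moved up (0.59 ± 0.11, adjusted p = 0.0441), having 985, 809, 1043 and 940 normalized counts in smoke against 687, 530, 501 and 558 in air at 5 days. At 1 day SRSF2 had 1210, 942, 1160 and 1194 in smoke against 1075, 839, 1010 and 976 in air, so the groups overlapped at 1 day and were apart at 5 days. The list as a whole had a median change of −0.19 (−0.10 without S1), with 21 members below 0 (63.6%, against 49.1% of all genes) and 12 above. Rescaled by library totals the list's median was −0.03, below the shift of all genes. These 4 calls were not made with 4 animals, where the changes were −0.62 ± 0.12 for SRSF6 (adjusted p = 0.188), −0.48 ± 0.18 for TRA2A (adjusted p = 0.586), −0.99 ± 0.24 for PNISR (adjusted p = 0.367) and 0.53 ± 0.13 for SRSF2 (adjusted p = 0.367). Without S1 and 1 further library, SRSF6, PNISR and SRSF2 each kept the call in 2 of 12 cases and TRA2A in 9, and without a further animal all 4 lost it in 3 of 3 cases. TRA2A was at 0.10 in S1, opposite in sign to the other 3 animals.

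EPHA2 (ENSMMUG00000018245), a receptor tyrosine kinase bound by ephrin-A ligands on neighbouring cells, crossed over. At 1 day it had 2705, 2659, 2928 and 2619 normalized counts in smoke against 2237, 2218, 2266 and 2105 in air. At 5 days the values were 2346, 2655, 2549 and 2421 in smoke against 3247, 3738, 3269 and 3302 in air. The groups did not overlap at either time, with smoke above air at 1 day and below it at 5 days. Between the times the fitted level of EPHA2 moved by −0.13 log2 in smoke and by +0.62 in air. The change was nearly equal in the 4 animals, at −0.74, −0.75, −0.73 and −0.76, and was fitted as −0.75 ± 0.10 (adjusted p = 0.0232; −0.75 ± 0.09 without S1, adjusted p = 0.00183). The smoke effect at 5 days was called (log2 −0.44, adjusted p = 0.0321) and the difference at 1 day was called only without S1 (log2 0.31 with 4 animals, adjusted p = 0.418, and 0.0326 without S1). EPHA2 lost its call under library totals (adjusted p = 0.307) and quantile normalization (adjusted p = 0.105). Of the 15 Eph receptors and ephrins measured EPHA2 was the 1 called. Among all genes 0.029% were called down with 4 animals and 0.312% without S1. EFNB1, a transmembrane ephrin, was at −0.59 (adjusted p = 0.296). The list's median was −0.06 with 4 animals and 0.05 without S1.

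RGS2 (ENSMMUG00000049590), which speeds GTP hydrolysis by Gq subunits and so limits receptor signalling, was the gene that moved up. At 1 day it had 147, 99.4, 99.8 and 116 normalized counts in smoke against 203, 171, 178 and 199 in air. After 5 days there were 257, 201, 288 and 273 in smoke against 170, 105, 170 and 173 in air. Smoke was below air without overlap at 1 day and above it without overlap at 5 days. The smoke effects were −0.71 at 1 day (adjusted p = 0.192, and 0.0179 without S1) and 0.73 at 5 days (adjusted p = 0.0437). The change was 1.44 ± 0.19 (adjusted p = 0.0232), and 1.58 ± 0.19 without S1 (adjusted p = 0.00345).

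RGS2 stands in a list of EGF receptor ligands and feedback genes, of which 25 gene IDs were measured with a median change of −0.08. Without S1 2 more were called, both down, where 0.312% of all genes were. Both are named GPRC5A, an orphan receptor induced by retinoic acid. ENSMMUG00000017631 changed by −0.92 ± 0.13 (adjusted p = 0.0109) and ENSMMUG00000057981 by −1.07 ± 0.14 (adjusted p = 0.00536), both kept in 12 of 12 omissions of a library. With 4 animals the changes were −0.83 ± 0.14 (adjusted p = 0.120) and −0.78 ± 0.22 (adjusted p = 0.505). The table gives this symbol to both IDs, so reads may be split between them and each value is uncertain. The first was lower in 4 of 4 animals, and the second was at 0.10 in S1.

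**Figure D2:**
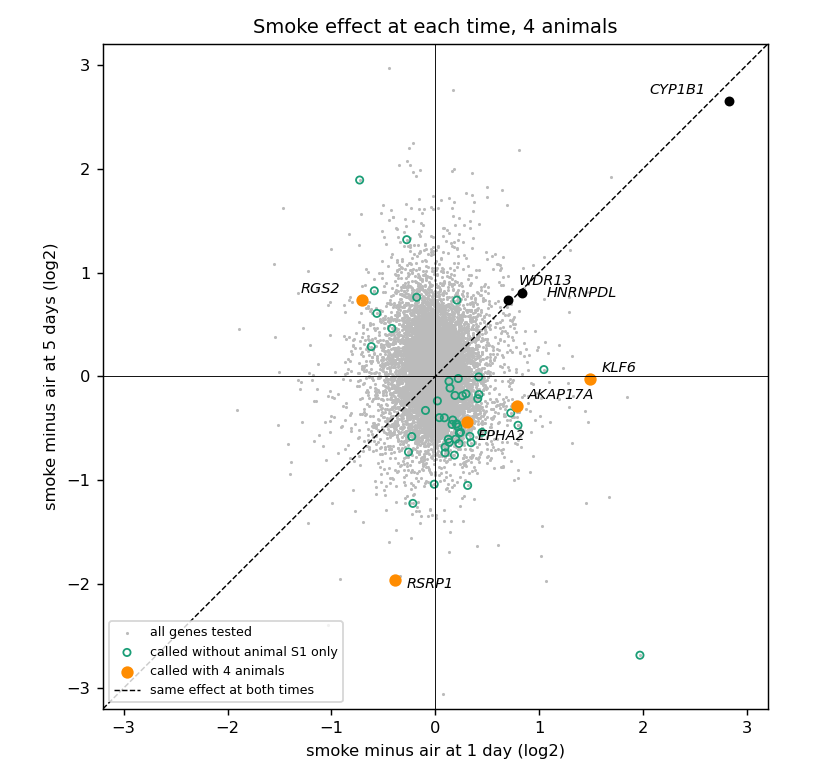
Smoke minus air at 1 day (horizontal) and at 5 days (vertical), log2, for the 13794 genes tested, fitted with 4 animals. Distance from the dashed diagonal is the change of the smoke effect. KLF6 and AKAP17A lie to the right of 0 at 1 day and near or below 0 at 5 days, RSRP1 lies low at 5 days, RGS2 lies at upper left, and CYP1B1, WDR13 and HNRNPDL lie near the diagonal.

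Among the 43 genes that moved down without S1, 36 had smoke above air at 1 day and below it at 5 days, 6 had the same sign and a larger effect at 5 days, and 1 had the same sign and a smaller one. Among all genes with a negative change in that fit these 3 classes held 2833, 2532 and 1591 genes. Of all 52 calls, 12 were also called for smoke at 1 day, 43 at 5 days, 4 at both times and 1 at neither, again without S1. The share of genes called for smoke without S1 was 0.58% at 1 day and 7.96% at 5 days (3.54% higher in smoke, 4.42% lower). The 52 were picked by the difference of these same smoke effects. That selection favours the overlaps and classes above, so their gap to all genes is no separate result. In S1 41 of the 52 had the same sign. Over all genes, 5228 had 1 sign in S2, S3 and S4, and 2985 of these had it in S1 too. With 1 more library left out, many named genes lost their call in some of the 12 cases. For the genes followed, the number of cases in which each kept it stands beside its value. With 1 more animal left out, CYP26A1 and GPRC5A (ENSMMUG00000057981) each kept it in 1 of 3 cases. The other named genes called without S1 lost it in 3 of 3 cases. This leaves aside the 5 called with 4 animals, and RHOB, EIF4A2 and ID1, which were not followed. Across genes, the smoke effects at the times correlated with r = −0.02 with 4 animals and 0.17 without S1. The times share no library but share their animals, and genes are not independent replicates.

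**Figure D3:**
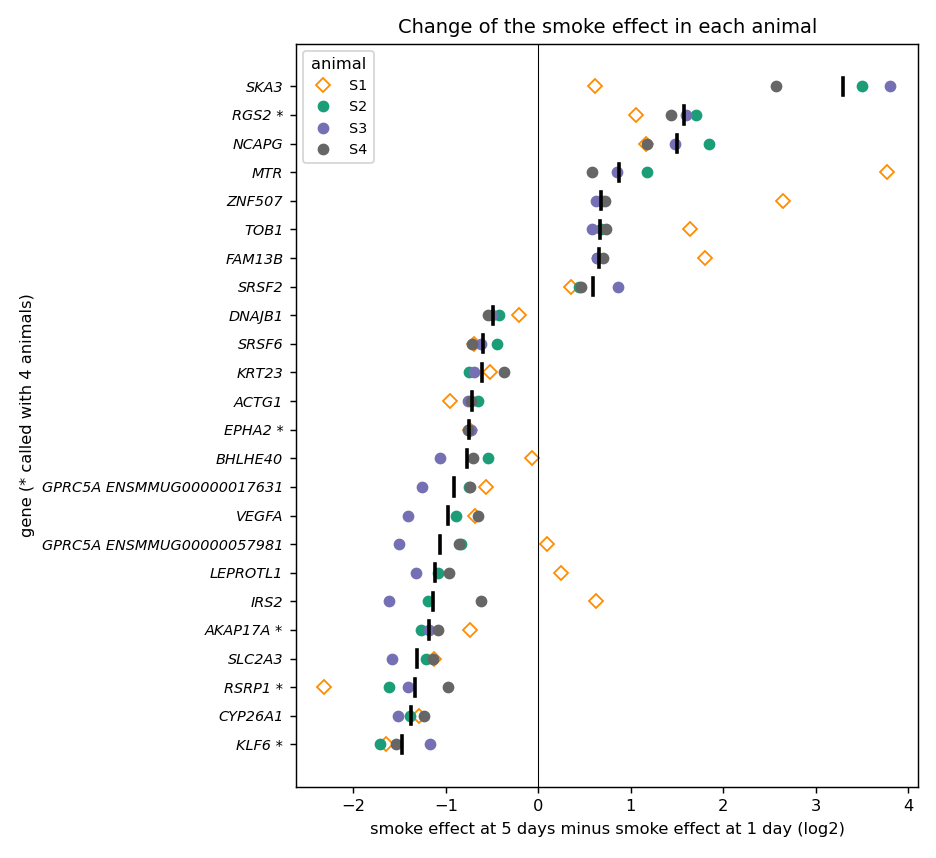
Change of the smoke effect (5 days minus 1 day, log2) in each animal for the genes named by rule and called without S1. Black ticks are the fit without S1, and asterisks mark genes called with 4 animals. PFKFB3, PNISR, TRA2A, RHOB, EIF4A2 and ID1, named outside that rule, are not drawn. S1 (open diamonds) lies with the other animals for KLF6, EPHA2 and CYP26A1, and far from them for MTR, ZNF507, IRS2 and LEPROTL1.

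Genes of the hypoxia response and glycolysis had mostly negative changes. Of 29 gene IDs measured 27 had a negative change (93.1%, against 49.1% of all genes), and 19 were negative in 4 of 4 animals (65.5%, against 11.1%). The median was −0.47 with 4 animals and −0.48 without S1, and 26 were below 0 when rescaled by library totals. With 4 animals 0 were called. Without S1 3 were called, all down, where 0.312% of all genes were: SLC2A3, VEGFA and PFKFB3. The list's median smoke effect was −0.01 at 1 day and −0.55 at 5 days.

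VEGFA, the vascular endothelial growth factor, had 851, 2309, 1384 and 1130 normalized counts in smoke against 681, 1733, 977 and 1059 in air at 1 day. At 5 days it had 1089, 3193, 1218 and 1650 in smoke against 1408, 4437, 2280 and 2429 in air. The groups overlapped at both times because the animals differ in level, while within each animal smoke was higher at 1 day and lower at 5 days. The change was −0.98 ± 0.15 without S1 (adjusted p = 0.0133) and −0.91 ± 0.16 with 4 animals (adjusted p = 0.120), and the call without S1 stood in 10 of 12 omissions of a library. The glucose transporter gene SLC2A3 had 63.2, 239, 123 and 146 in smoke against 36.2, 126, 83.5 and 77.0 in air at 1 day. After 5 days it had 75.0, 381, 135 and 226 in smoke against 95.3, 467, 275 and 263 in air. Its change was −1.31 ± 0.22 without S1 (adjusted p = 0.0209, kept in 5 of 12 omissions) and −1.27 ± 0.22 with 4 animals (adjusted p = 0.120). Fitted levels of VEGFA moved between the times by +0.30 log2 in smoke and by +1.21 in air. Those of SLC2A3 moved by +0.42 in smoke and by +1.68 in air. PFKFB3, whose product makes the activator of phosphofructokinase, changed by −0.89 ± 0.17 without S1 (adjusted p = 0.0406, kept in 3 of 12 omissions) but was at 1.27 in S1, and the change with 4 animals was −0.35 ± 0.56 (adjusted p = 0.805). The glycolytic genes GAPDH (−0.47 ± 0.32) and LDHA (−0.29 ± 0.21) did not pass. PDK1 (0.39) and LOX (0.03) were the 2 members above 0.

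Cell cycle genes lay on the other side. All 27 measured members had a positive change (100%, against 50.9% of all genes), with 4 animals and without S1 and under both other scalings, and 19 were positive in 4 of 4 animals (70.4%, against 10.6%). The median was 0.91 with 4 animals and 0.73 without S1, and 0.86, 0.79, 0.95 and 0.53 in S1 to S4. In neither fit did a member of the list pass the test. The list's median smoke effect was −0.15 at 1 day and 0.63 at 5 days.

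MKI67, the proliferation marker, had 1135, 324, 424 and 573 normalized counts in smoke against 1317, 450, 570 and 820 in air at 1 day. At 5 days the values were 410, 59.8, 167 and 180 in smoke against 59.7, 31.5, 95.0 and 56.5 in air. Levels were lower at 5 days than at 1 day under both exposures, with fitted differences of −1.72 log2 in smoke and −3.66 in air. Within each animal smoke was below air at 1 day and above it at 5 days. Its smoke effect at 5 days was called (log2 1.53, adjusted p = 0.0439). The change was 1.94 ± 0.42 (95% interval 1.02 to 2.85) with an adjusted p of 0.308, and 1.59 ± 0.32 without S1 with an adjusted p of 0.0513. KIF11, a spindle motor, was at 1.07 ± 0.29 (adjusted p = 0.446), whereas the replication genes PCNA (0.13 ± 0.18) and MCM2 (0.13 ± 0.30) had changes smaller than their errors.

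NCAPG and SKA3 are not on that list and were called without S1. NCAPG, a condensin subunit, had 166, 34.9, 59.3 and 77.2 normalized counts in smoke against 193, 73.0, 98.7 and 99.8 in air at 1 day. After 5 days there were 92.3, 29.6, 45.4 and 51.3 in smoke against 47.5, 16.6, 26.5 and 28.9 in air. Smoke was lower in every animal at 1 day and higher in every animal at 5 days, a change of 1.50 ± 0.26 without S1 (adjusted p = 0.0263) and 1.41 ± 0.22 with 4 animals (adjusted p = 0.0688). The NCAPG call stood in 2 of 12 omissions of a further library. SKA3, of the kinetochore, changed by 3.29 ± 0.51 without S1 (adjusted p = 0.0133, kept in 7 of 12 omissions; 2.62 ± 0.54 with 4 animals, adjusted p = 0.294), but its 5-day air values in S2, S3 and S4 were 2.10, 2.07 and 2.09, about 2 reads each. Such a fold depends on the pseudocount and gives no bound.

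**Figure D4:**
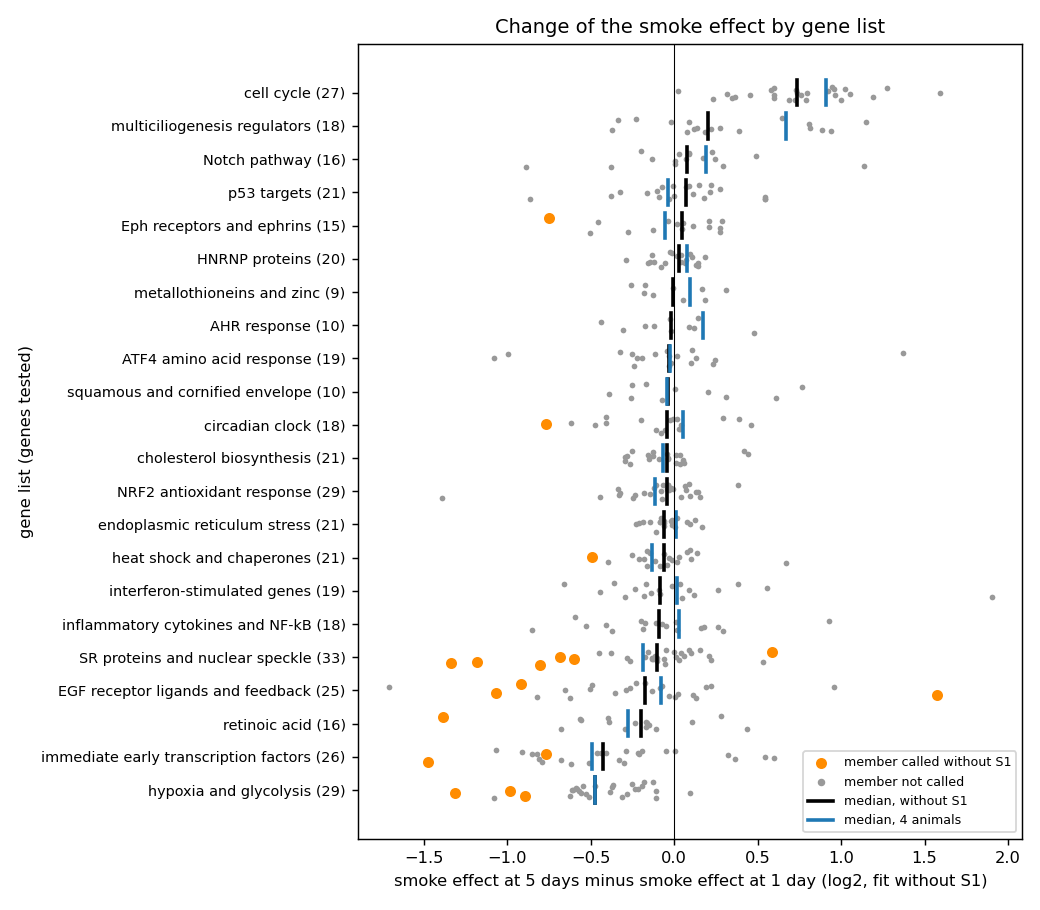
Change of the smoke effect (log2, fit without S1) for each measured member of 22 gene lists, with list medians without S1 (black) and with 4 animals (blue). Orange points were called without S1. Cell cycle members all lie above 0, hypoxia and glycolysis members lie below 0 with 1 exception in this fit, and the blue and black medians differ most for multiciliogenesis regulators.

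Among regulators of multiciliogenesis, the program that builds many centrioles and cilia in 1 cell, the size of the median change depended on S1. With 4 animals 13 of 18 were above 0 (72.2%, against 50.9% of all genes), with a median of 0.67. Without S1 14 were above 0 (77.8%, against 49.6%), with a median of 0.20. In 7 of the 18 the change was positive in 4 of 4 animals (38.9%, against 10.6%). By animal the median was 0.69, 0.09, 0.53 and 0.11 in S1 to S4. No member passed in either fit. PLK4, the kinase that starts centriole copying and serves the cell cycle too, was at 1.51 ± 0.46 (adjusted p = 0.521). The geminin-like factor gene GMNC was at 1.10 ± 1.02 with 4 animals and 0.08 ± 0.33 without S1. The 19 ciliated cell markers had a median change of −0.01, with 9 above 0 (47.4%, against 50.9% of all genes).

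CYP26A1, the enzyme that degrades retinoic acid, had 617, 1306, 678 and 490 normalized counts in smoke against 535, 1007, 597 and 350 in air at 1 day. At 5 days it had 1044, 985, 827 and 745 in smoke against 2227, 1994, 2091 and 1255 in air. Smoke was above air in each animal at 1 day, with overlap, and below every air library at 5 days. Between the times the fitted level of CYP26A1 moved by +0.31 log2 in smoke and by +1.67 in air. Its change was −1.38 ± 0.25 without S1 (adjusted p = 0.0327) and −1.36 ± 0.28 with 4 animals (adjusted p = 0.294), and the call stood in 4 of 12 omissions of a library. Without S1 it was the 1 call among 16 retinoic acid genes, where 0.312% of all genes were called down. The median of these 16 was −0.28 (−0.20 without S1). RARG, a retinoic acid receptor, was at −0.42 ± 0.11 (adjusted p = 0.371).

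**Figure D5:**
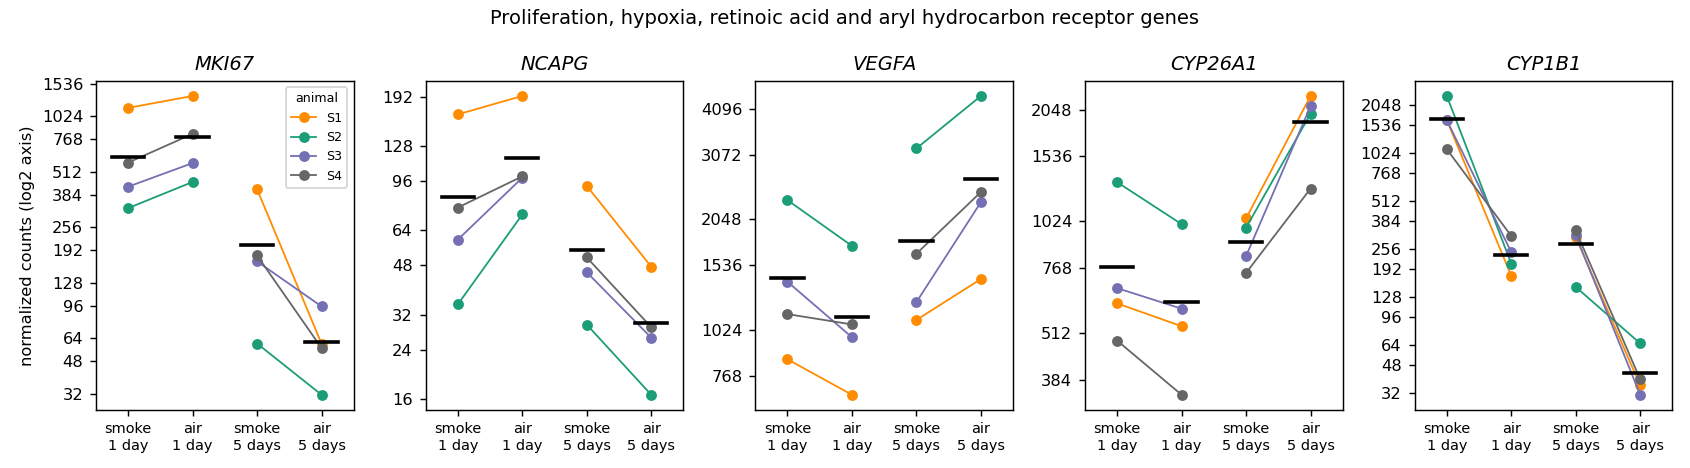
Normalized counts (log2 axis) of genes of proliferation (MKI67, NCAPG), hypoxia (VEGFA), retinoic acid breakdown (CYP26A1) and the AHR response (CYP1B1), by library, drawn as for the 5 called genes. MKI67 and NCAPG turn from smoke below air at 1 day to smoke above air at 5 days, VEGFA and CYP26A1 turn the other way, and CYP1B1 is higher in smoke in every animal at both times.

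ACTG1, DNAJB1 and KRT23 were called down without S1, as were 0.312% of all genes, and had the same sign in S1. ACTG1, cytoplasmic gamma actin, had 33460, 41340, 37660 and 39850 normalized counts in smoke against 29790, 34940, 29310 and 35900 in air at 1 day. After 5 days it had 17300, 19860, 17410 and 16880 in smoke against 29860, 26470, 22890 and 25290 in air. Its groups overlapped at 1 day and were apart at 5 days, and the change was −0.72 ± 0.10 (adjusted p = 0.00671, kept in 12 of 12 omissions), against −0.78 ± 0.14 with 4 animals (adjusted p = 0.168). DNAJB1, a cochaperone of HSP70 and the 1 call among 21 heat shock genes, changed by −0.49 ± 0.10 (adjusted p = 0.0441, kept in 3 of 12 omissions; −0.42 ± 0.11 with 4 animals, adjusted p = 0.446). KRT23, an epithelial keratin, changed by −0.61 ± 0.10 (adjusted p = 0.0136, kept in 9 of 12 omissions; −0.59 ± 0.11 with 4 animals, adjusted p = 0.188).

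In several genes called without S1 the change in S1 was far from that in the other animals, or of opposite sign. IRS2, an adaptor of the insulin receptor, changed by −1.14 ± 0.18 without S1 (adjusted p = 0.0133) and was at 0.62 in S1. LEPROTL1, which acts in receptor trafficking, changed by −1.12 ± 0.16 (adjusted p = 0.0109) and was at 0.25 in S1. MTR, methionine synthase, changed by 0.87 ± 0.17 (adjusted p = 0.0441) and was at 3.77 in S1, where its 5-day air library had 17.6 normalized counts against 105 to 141 in the others. The antiproliferative gene TOB1 changed by 0.66 ± 0.09 (adjusted p = 0.0105) and FAM13B by 0.66 ± 0.10 (adjusted p = 0.0133), with 1.63 and 1.80 in S1. ZNF507, a zinc finger gene, changed by 0.68 ± 0.13 (adjusted p = 0.0441) and was at 2.65 in S1. Its call stood in 0 of 12 omissions of a further library and that of MTR in 1, against 6 for FAM13B, 8 for IRS2 and 12 each for TOB1 and LEPROTL1. With 4 animals the changes were −0.70 ± 0.30 for IRS2, −0.78 ± 0.24 for LEPROTL1, 1.59 ± 0.62 for MTR, 0.90 ± 0.26 for TOB1, 0.94 ± 0.28 for FAM13B and 1.17 ± 0.48 for ZNF507, with adjusted p from 0.502 for TOB1 to 0.624 for IRS2. Some calls outside the rule for named genes were picked after their values were seen. RHOB, an immediate early GTPase gene, had a smoke effect of 1.04 at 1 day and 0.07 at 5 days with 4 animals, and a change of −0.70 ± 0.12 without S1 (adjusted p = 0.0235; −0.98 ± 0.20 with 4 animals, adjusted p = 0.294). EIF4A2, an RNA helicase of translation, changed by −0.45 ± 0.08 without S1 (adjusted p = 0.0315; −0.47 ± 0.10 with 4 animals, adjusted p = 0.296). ID1, an inhibitor of basic helix-loop-helix factors, changed by −0.80 ± 0.14 without S1 (adjusted p = 0.0231; −1.01 ± 0.25 with 4 animals, adjusted p = 0.367). The calls of RHOB, EIF4A2 and ID1 were not followed through the omissions.

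Not every smoke effect changed detectably. CYP1B1 (ENSMMUG00000013945), the P450 induced through the AHR, had 1649, 2335, 1643 and 1081 normalized counts in smoke against 173, 207, 244 and 308 in air at 1 day. At 5 days the values were 303, 148, 311 and 334 in smoke against 35.5, 65.1, 31.0 and 38.7 in air. Smoke was above air without overlap at both times, and both exposures had lower levels at 5 days, with fitted differences of −2.63 log2 in smoke and −2.45 in air. The change of the effect was −0.18 ± 0.46 (95% interval −1.18 to 0.82, adjusted p = 0.884; −0.17 ± 0.47 without S1, adjusted p = 0.931). By animal it ranged from −2.33 in S2 to 1.27 in S4. CYP1A1 was below the filter, with 60.6, 3.21, 11.9 and 2.23 in smoke against 1.72, 0.926, 0.781 and 0 in air at 1 day, and 7.86, 2.99, 2.87 and 3.15 in smoke against 0, 1.05, 0 and 0 in air at 5 days.

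WDR13, a WD repeat protein, and HNRNPDL, an RNA-binding protein, were called for smoke at both times and had changes of 0.03 ± 0.15 (95% interval −0.29 to 0.36) and −0.03 ± 0.16 (−0.38 to 0.32). Without S1 the changes were 0.14 ± 0.09 for WDR13 (adjusted p = 0.594) and −0.15 ± 0.11 for HNRNPDL (adjusted p = 0.646). The AHR repressor gene AHRR was at −0.28 ± 0.11 (adjusted p = 0.586) and negative in 4 of 4 animals. The 10 AHR genes had a median of 0.17 with 4 animals and −0.02 without S1, where S1 was at 1.10. The 29 NRF2 antioxidant genes had a median of −0.11 (−0.04 without S1), with 22 below 0 (75.9%, against 49.1% of all genes). In 9 the change was negative in 4 of 4 animals (31.0%, against 11.1%). Under library totals, however, the list's median was 0.04, below the shift of all genes. In that list HMOX1, heme oxygenase, had 52.0, 230, 143 and 73.8 in smoke against 37.1, 113, 73.4 and 67.6 in air at 1 day. After 5 days there were 74.2, 40.0, 82.3 and 73.9 in smoke against 103, 109, 92.0 and 104 in air. Smoke was above air in every animal at 1 day and below it in every animal at 5 days, and the change of −1.28 ± 0.55 had an adjusted p of 0.623 (−1.39 ± 0.47 without S1, adjusted p = 0.251). In the lists of HNRNP proteins, endoplasmic reticulum stress, ATF4, cholesterol synthesis, metallothioneins, inflammatory cytokines, interferon-stimulated genes, p53 targets, Notch and squamous genes 0 members were called in either fit. Their medians lay from −0.06 to 0.19 with 4 animals. The circadian list of 18 genes had 1 call without S1, BHLHE40, which also stands among the immediate early factors. In that fit 0.312% of all genes were called down.

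The share of mitochondrially encoded transcripts moved with the groups. At 1 day it was 6.02 to 6.39% in smoke, against 8.82% in the air library of S1 and 5.71 to 6.75% in the other air libraries. At 5 days it was 4.13 to 4.97% in smoke, against 8.49% in the air library of S1 and 2.95 to 3.67% in the other air libraries. Without S1 all 13 mitochondrial genes had a positive change, with a median of 0.37 and 0 called, and in S1 the median was −0.73. The part of this in the results above was not tested. Basal cell markers had a median change of −0.17, with 8 of 12 below 0 (66.7%, against 49.1% of all genes) and 0 called. Their part was not tested either. The other marker lists (ciliated, club, goblet, rare epithelial, fibroblast, leukocyte and endothelial cells) also had 0 members called in either fit.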

How the data were processed

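RNA-seq of 24 libraries was deposited as 1 table, and 16 libraries (4 groups of 4 animals) were used. The processing notes of the submitters name FastQC, Trim Galore, Bowtie2 and RSEM. Versions, genome build, annotation and the normalizing tool (not given in the sources used here) are unknown, and no coordinates are printed. The deposited values are a normalized signal per gene, called normalized counts here. They are named as raw counts but are not whole, and each library had a median ratio of 1.01 against gene-wise geometric means, as division by a size factor gives. Whole reads could not be recovered for nearly all genes, so count tests were not used, approximate depths come from the value of 1 read, and counting error is unknown.

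Values were analysed as log2(value + 1) in limma 3.58.1 (R 4.3.3), with group and animal as additive terms and variances that follow the mean, two-sided, with Benjamini-Hochberg adjustment over the 13794 genes (minimum value 10 in 4 libraries). The fit had 9 residual degrees of freedom, and 6 without S1, where the same genes were kept. A gene was called at an adjusted p under 0.05. The script was tested on simulated data with known changes. Numbers pair libraries by animal per the labels. Deviations from group means correlated at 0.386 to 0.818 (24 pairs) within animals and at −0.455 to −0.0427 (72 pairs) between animals. Such deviations cancel over the 4 animals of a group, which by itself pulls the correlations between animals to negative values.

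Named genes were those called, filled to 10 in a direction by smallest p among genes of 1 sign in 4 of 4 animals, the 10 largest in each direction called without S1, 2 members of each of the 22 lists, and a fixed set. List members called without S1, and GAPDH, LDHA, PDK1, LOX, KIF11, PCNA, MCM2 and GMNC, were added after their values were seen. The members and lists were chosen with earlier results of these data known. Symbols came from the table for 23817 genes and from the reference name table for 720. Lists are described by counts and medians and were not tested. Alternatives were the block, paired differences, recovery libraries in the fit, array weights, both scalings, pseudocount, filters, threshold and omissions. A planned search of promoters was not run, because no sequence table was used here.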

Additional observations from a re-analysis of the deposited data

Results flagged for a closer look

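The following values stood out by a test of the difference between times, by 1 sample far from the other 3 of its group, or by a signal in libraries outside the comparison. The change of the smoke effect itself passed the test (limma, adjusted p under 0.05) with 4 animals for KLF6 (−1.52 log2), AKAP17A (−1.07), EPHA2 (−0.75), RSRP1 (−1.58) and RGS2 (1.44).

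Without S1 the named genes that passed and moved down were SLC2A3 (−1.31), CYP26A1 (−1.38), IRS2 (−1.14), LEPROTL1 (−1.12), GPRC5A (−0.92 for ENSMMUG00000017631 and −1.07 for ENSMMUG00000057981), VEGFA (−0.98), PFKFB3 (−0.89), PNISR (−0.81), BHLHE40 (−0.77), ACTG1 (−0.72), TRA2A (−0.68), KRT23 (−0.61), SRSF6 (−0.60) and DNAJB1 (−0.49). RHOB (−0.70), ID1 (−0.80) and EIF4A2 (−0.45), picked after their values were seen, belong with them. Those that moved up were SKA3 (3.29), NCAPG (1.50), MTR (0.87), ZNF507 (0.68), TOB1 (0.66), FAM13B (0.66) and SRSF2 (0.59).

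Single animals stood far from the other 3 in their change. S1 did so for TOB1 (1.63), FAM13B (1.80), ZNF507 (2.65), SLC30A1 (1.75 for ENSMMUG00000056449), RELB (−0.98) and NSDHL (−1.03), and S3 for HNRNPH3 (−0.49). Chance alone would mark about 1 in 20 groups, and 72 sets of 4 values were examined for genes and 24 for library measures.

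Among library measures the air library of S1 at 5 days differed from the other 5-day air libraries in approximate depth (9.46 M reads), mitochondrial share (8.49%), share of the 10 most abundant genes (18.2%) and median correlation with the other libraries (0.861). The 1-day smoke library of S2 had a normalized total of 13.5 M, above the 12.8 to 12.9 M of the other 3.

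Libraries taken after a recovery week (7 days) were outside the comparison. RSRP1 had 319, 286, 271 and 325 normalized counts there in smoke, against 230, 169, 231 and 237 in air. The lowest smoke library, at 271, lay above every air library, the opposite order to that at 5 days.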

How the results depend on the processing

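With no replicate block, which ignores the pairing by animal, 0 genes were called for the change, 1 without S1, 1 for smoke at 1 day and 4 at 5 days, and with paired differences per animal 0 for each of the 4 comparisons. With array weights the counts were 197, 117, 990 and 1089, where the 5-day air library of S1 had a weight of 0.0237, and without that library 101 for the change, 187 at 1 day and 1189 at 5 days. With recovery libraries in the fit they were 34 without S1, 12 at 1 day and 243 at 5 days. Under library totals 3 were called for the change and 44 at 5 days (34 higher, 10 lower, against 40 and 36 as deposited), and under quantile normalization 22 without S1. With no filter 11 were called without S1 and 16 at 5 days, and at an adjusted p under 0.1 121 without S1 and 253 at 5 days. The counts at the other settings were within 1.5 times of the values as reported. Leaving out 1 animal gave 0 to 52 genes for the change, 0 to 11 for the change without S1, 1 to 80 at 1 day and 1 to 1098 at 5 days. Leaving out 1 library gave 1 to 5, 14 to 98, 1 to 5 and 2 to 27 (the 5-day air library of S1 apart). The cause of these differences was not tested.

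The 5 called genes kept their sign under all alternatives, from −1.64 to −1.36 for KLF6, −1.18 to −0.91 for AKAP17A, 1.34 to 1.60 for RGS2, −0.79 to −0.59 for EPHA2 and −1.78 to −1.33 for RSRP1. With 1 other library left out, KLF6 kept its call in 15 of 15 cases, AKAP17A in 4, RGS2 in 3, RSRP1 in 2 and EPHA2 in 1. The change of CYP1B1 was 0.012 with array weights and that of HNRNPDL 0.13 under library totals, both opposite in sign to the main value. With 1 animal or library left out CYP1B1 lay between −0.66 and 0.54, WDR13 between −0.031 and 0.14 and HNRNPDL between −0.15 and 0.057.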

Other observations

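The other 4 called genes were also read in the libraries taken after recovery, as values with no test. KLF6 had 855, 1455, 743 and 639 normalized counts in smoke (S1 to S4) against 913, 1358, 654 and 756 in air, and the groups overlapped. EPHA2 had 3233, 3221, 2805 and 3235 in smoke against 2739, 2663, 2839 and 2633 in air, with smoke above air in 3 of 4 animals. RGS2 had 102, 147, 114 and 137 in smoke against 125, 129, 133 and 191 in air, below air in 3 of 4 animals. AKAP17A had 314, 261, 295 and 244 in smoke against 245, 255, 255 and 260 in air, above air in 3 of 4 animals.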
